A study of Mus musculus with 4 samples.

Results

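The S100a8 and S100a9 locus of mouse chromosome 3 was described through the peaks of open chromatin that lie in it. Its members were the peaks that overlap chr3:90550000-90620000 of GRCm39, a window set by position alone that holds S100a8, near 90.577 Mb, and S100a9, near 90.602 Mb. There were 15 such peaks of 57090 in the table. In ATAC-seq, a transposase inserts sequencing adapters into DNA that is accessible in the nucleus, and a higher count in a peak means that more insertions were read there. The experiment compared monocytes from the bone marrow of the femur with those of the mandible, in C57BL/6J mice 2 mo of age with no treatment or altered gene named, with 2 libraries from each skeletal site. Each library was made from 20000 cells pooled from 4 mice, and both sites of a batch came from the same pool, with replicate 1 of each site in batch A and replicate 2 in batch B. The sample labels give CD11b+ cells of male mice. The extraction protocol describes instead untouched monocytes, collected as the cells that a magnetic column did not hold, and the methods on monocyte isolation name mice of both sexes.

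S100A8 and S100A9 are small calcium-binding proteins that pair to form calprotectin, one of the most abundant proteins in the cytoplasm of neutrophils and also plentiful in monocytes. Released calprotectin withholds zinc and manganese from microbes and acts as an alarm signal through the receptors TLR4 and RAGE. Both genes belong to the S100 gene cluster, and their transcripts fall as monocytes mature into macrophages. The study also measured both transcripts in monocytes of the same skeletal sites, so the comparison asks whether accessibility at the locus differed between these sites. In cells pooled in this way, a change in accessibility per cell and a change in the number of cells of a type cannot be told apart, and neutrophils, which also use these genes, are abundant in bone marrow. The isolation was a negative selection, in which antibodies held other cells on the column. Markers of monocytes and of other cell types, and the overlap of the peaks with exons or introns, were not analysed here.

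The promoters of both genes are shown first, because the strongest peaks of the locus per unit length include those at their positions. The sequences are from RefSeq on GRCm38.p6, a different build from that of the peaks, so they were not placed within the peaks by coordinate. Each runs 5′ to 3′ on the strand of its gene, from 250 bases before the annotated start to 30 bases after it. S100a8 is on the plus strand at chr3:90668821-90669100 and S100a9 on the minus strand at chr3:90695692-90695971. Capitals mark matches, on either strand, to any of 6 motifs: C/EBP (TTGCNNAA), PU.1 (GAGGAAG), AP-1 (TGANTCA), STAT (TTCNNNGAA), KLF (GGGNGTG) and the TATA box (TATAAA).
S100a8: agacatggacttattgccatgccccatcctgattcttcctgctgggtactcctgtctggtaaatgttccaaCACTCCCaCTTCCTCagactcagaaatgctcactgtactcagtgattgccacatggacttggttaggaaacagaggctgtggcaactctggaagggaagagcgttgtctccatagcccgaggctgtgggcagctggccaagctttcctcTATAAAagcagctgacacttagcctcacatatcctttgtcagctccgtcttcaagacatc
S100a9: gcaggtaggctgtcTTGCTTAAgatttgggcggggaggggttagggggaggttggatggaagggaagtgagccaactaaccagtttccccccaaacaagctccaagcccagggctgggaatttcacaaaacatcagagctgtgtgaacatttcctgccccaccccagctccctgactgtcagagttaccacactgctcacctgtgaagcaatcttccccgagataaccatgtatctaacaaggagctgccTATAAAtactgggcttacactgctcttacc

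The TATA box motif, which positions the transcription machinery, occurred in both promoters, and 13.1% of 32851 RefSeq promoters of the same length hold it. In S100a8 it began at base -30 from the start. In S100a9 it began at base 1, which is the start that the annotation gives. Whether that start is the one used in these cells was not tested, and all S100a9 positions and the distance between the starts are counted from it. The GC content of these windows was 50.4% in S100a8 and 52.1% in S100a9, beside a median of 52.5% over all promoters. The PU.1 motif, recognized by a transcription factor of myeloid cells, had 1 match in S100a8, from base -171 to base -165, and occurs in 12.2% of promoters. The letters searched for KLF, in which N stands for any base, had 1 match in S100a8, from base -179 to base -173. That match reads CACTCCC on the strand of the gene, and 28% of promoters hold a match. Whether a Krüppel-like factor recognizes it was not tested. The PU.1 and KLF matches were on the strand opposite to the gene and did not overlap. S100a9 had 1 match to the C/EBP motif, a motif of factors of granulocyte and monocyte development, from base -236 to base -229, and 10.4% of promoters hold one. Neither window held the letters searched for AP-1, which occur in 7.46% of promoters, or for STAT, which occur in 7.83%. The starts of both genes lie 26650 bases apart in GRCm38.p6, with 0 annotated genes between them. S100a7a is the neighbour on the S100a8 side, and the pseudogene Gm5284 and then Pglyrp4, which encodes a peptidoglycan recognition protein, follow S100a9.

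The locus was dense in peaks. Its 15 peaks covered 10142 bp, or 14.5% of the window. Among 14927 windows of the same width that held at least 1 peak, tiled over the genome, the median was 3 peaks, and 0.817% held at least 15. Peaks inside the locus lay a median of 3.12 kb apart, against 7.94 kb over the table, and the smallest gap, between Peak_34805 and Peak_34806, was 129 bp. The last peak was followed by 1371 kb without a peak, and only 0.478% of the gaps between neighbouring peaks of the table were as long or longer. The locus therefore sat at the edge of a long stretch with no called peak. On the other side the next peak lay 12.9 kb from the first member.

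Peak lengths ranged from 174 to 2873 bp, with a median of 445 bp, against 364 bp over the table. Of the 15 members, 3 were longer than 1000 bp, against 14.96% of all peaks. These were Peak_34804, Peak_34810 and Peak_34811, and each stood at or beside the position of a gene. Levels are given as loess-normalised CPM, the reads of a peak scaled to a common number of reads in peaks after a curve of the count on the mean level was removed from each library, and as CPM per kb where peaks are compared with each other. Per kb, Peak_34813 was the highest (31.4 CPM per kb, mean of the 4 libraries), followed by Peak_34804 (28.6 CPM per kb) and Peak_34811 (23.2 CPM per kb). These means were at the percentiles 80.6, 76.2 and 63.9 of all peaks. The lowest were the adjacent Peak_34806 (8.64 CPM per kb) and Peak_34805 (9.96 CPM per kb), at the percentiles 0.294 and 1.43. The median over the locus was 17.7 CPM per kb, against 19.5 CPM per kb over all peaks, and 5 of the 15 peaks lay above the latter.

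**Figure D1:**
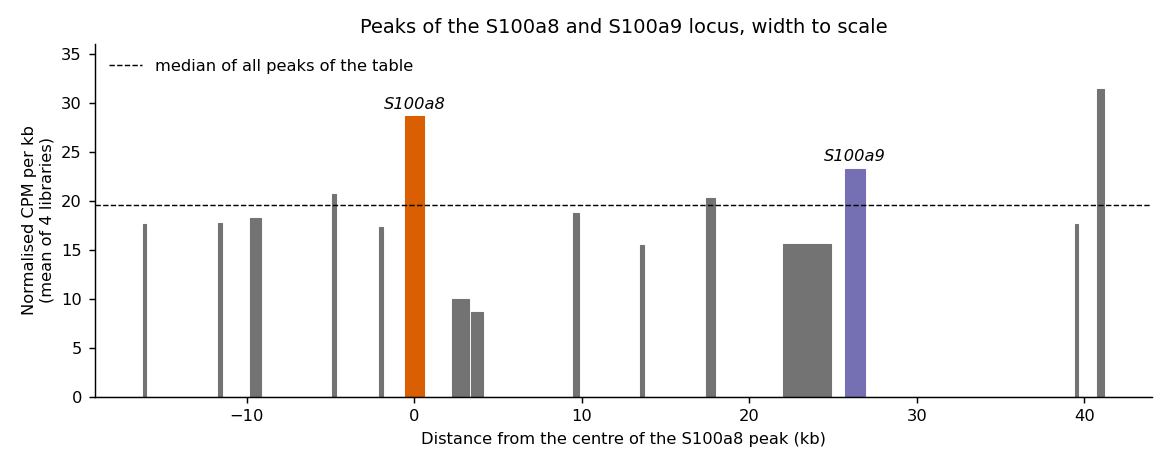
Bars show the 15 peaks of the locus at their distance in kb from the centre of the peak at S100a8 (x axis), drawn as wide as the peak, with the mean loess-normalised CPM per kb of the 4 libraries as height. The dashed line is the median of all peaks (19.5 CPM per kb), and the peaks at S100a8 (28.6 CPM per kb) and S100a9 (23.2 CPM per kb) rise above it, while the pair 2.74 and 3.74 kb beyond S100a8 does not reach 10 CPM per kb.

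None of the 15 peaks passed an adjusted p under 0.05 for a difference between the skeletal sites (edgeR's quasi-likelihood test, Benjamini-Hochberg adjustment over all peaks), where 0.00701% of all peaks did, 0.00525% higher and 0.00175% lower in mandible. Each of the 15 had an adjusted p of 0.999994 by this test. At an unadjusted p under 0.05 there were also 0 of 15, against 2.71% of all peaks. DESeq2 also gave 0 at both thresholds, where it called 15 peaks higher and 0 lower over the table after adjustment. It gave no adjusted p for 6 of the 15, and none for 26564 of all 57090 peaks. The log2 fold change of mandible over femur was below 0 in 12 peaks and above 0 in 3, against 50.9% below 0 in the table, with a median of -0.05 in the locus and -0.0044 over all peaks. The split was 10 below and 5 above 0 without femur replicate 1, 11 and 4 without mandible replicate 1, 9 and 6 without femur replicate 2, and 7 and 8 without mandible replicate 2. In the same order, the locus median was -0.23, -0.26, -0.0225 and 0.00654, and with all libraries it was -0.14 with TMM and -0.13 with DESeq2. All 15 of the 95% confidence intervals included 0. In 12 peaks the interval stayed between -1 and 1, so that a difference of more than 2-fold in either direction lay outside it. The width of these intervals draws on the spread over all peaks, not only on the 2 libraries per site. With batch as a replicate block, 0 of 15 passed the adjusted threshold, where 0.0998% of all peaks did, and 1 of 15, Peak_34806, had an unadjusted p under 0.05, where 2.96% of all peaks did. Levels in the libraries are given below in the order of the parts of the locus.

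The peak at S100a8, the gene of the calprotectin subunit S100A8, was Peak_34804, the nearest to its position (chr3:90575944-90577078, 1135 bp). In batch A it had 31.4 CPM in femur and 31.0 CPM in mandible, and in batch B 39.7 CPM in femur and 27.7 CPM in mandible. Both mandible libraries were below both femur libraries, but in batch A by very little. The femur mean was 35.6 ± 5.90 CPM (SD, n = 2), and the mandible mean was 29.4 ± 2.35 CPM (SD, n = 2). The log2 fold change was -0.28 (standard error 0.168, 95% confidence interval -0.63 to 0.08, unadjusted p = 0.116). The log2 difference was -0.02 within batch A and -0.52 within batch B. Without femur replicate 2 the log2 fold change was -0.0869, and without femur replicate 1 it was -0.43 (unadjusted p = 0.00755, adjusted p = 0.104 from edgeR's test), in a fit that called 4.71% of all peaks.

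The peak nearest to the position of S100a9, the gene of the partner subunit, was Peak_34811 (chr3:90602189-90603404, 1216 bp), whose centre lay 26285.5 bp from that of Peak_34804. Its levels were 27.3 CPM and 33.3 CPM in femur replicates 1 and 2, and 31.7 CPM and 20.6 CPM in mandible replicates 1 and 2. Here mandible replicate 1 lay between both femur libraries, so the groups overlapped. The femur mean was 30.3 ± 4.23 CPM (SD, n = 2) and the mandible mean 26.2 ± 7.87 CPM (SD, n = 2), with a log2 fold change of -0.21 (standard error 0.200, 95% confidence interval -0.63 to 0.21). Mandible was higher in batch A, by 0.22 on the log2 scale, and lower in batch B, at -0.69. Without mandible replicate 2 the log2 fold change was 0.05.

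Peak_34810 (chr3:90598492-90601364), directly beside the peak at S100a9, was the longest of the locus at 2873 bp, a length above that of 99.6% of all peaks. S100a9 is on the minus strand and 3092 bases long in GRCm38.p6, so it runs from its start toward lower coordinates, where Peak_34810 lies. Whether Peak_34810 overlaps the gene itself was not analysed. Peak_34810 took the most reads of the locus in every library, from 22.0% to 26.2% of the counts of the 15 peaks. Per unit length it was not high, at 15.6 CPM per kb, the percentile 27.8 of all peaks. Its levels were 47.6 CPM and 48.6 CPM in femur replicates 1 and 2, and 48.7 CPM and 34.3 CPM in mandible replicates 1 and 2. Mandible replicate 2 was low, and the other libraries nearly coincided. The log2 fold change was -0.21 (standard error 0.160, 95% confidence interval -0.55 to 0.13), and it was 0.01 without mandible replicate 2.

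**Figure D2:**
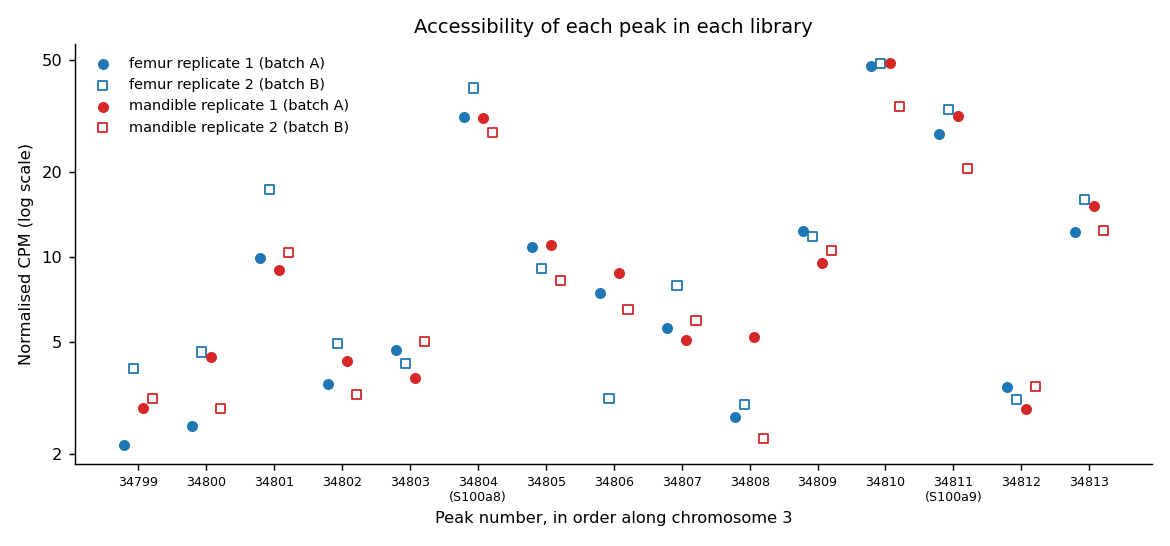
Points show the loess-normalised CPM (log scale) of each of the 15 peaks in each of the 4 libraries, femur in blue and mandible in red, with filled circles for batch A and open squares for batch B. Femur replicate 2 is the highest library in 8 peaks and mandible replicate 2 the lowest in 6, and Peak_34806 stands out by its low value in femur replicate 2 (3.15 CPM). For femur replicate 2 as highest and mandible replicate 2 as lowest, the shares over all peaks are not given here.

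Between the positions of both genes lay another 5 peaks. Peak_34806 (chr3:90579873-90580623), 3.74 kb from the centre of the S100a8 peak, had the largest positive log2 fold change of the locus. Batch A gave 7.45 CPM in femur and 8.80 CPM in mandible, and batch B gave 3.15 CPM in femur and 6.53 CPM in mandible. Mandible was higher in both batches, but femur replicate 1 was above mandible replicate 2, so the groups overlapped and femur replicate 2 was the low library. The log2 fold change was 0.55 (standard error 0.329, 95% confidence interval -0.14 to 1.24, unadjusted p = 0.112), and the batches gave log2 differences of 0.24 (A) and 1.05 (B). With the replicate block it was 0.64 (unadjusted p = 0.0303 from edgeR's test). As a share of the locus counts, which does not depend on the scaling of the libraries, Peak_34806 held 1.59% in femur replicate 2 and from 4.02% to 4.37% in the other libraries. Without femur replicate 1, so that femur replicate 2 alone stood for the femur, its log2 fold change was 1.29 (adjusted p = 0.00236 from edgeR's test), in a fit that called 4.71% of all peaks. Without femur replicate 2 it was 0.04.

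Peak_34805, separated from it by the gap of 129 bp, ranged only from 8.27 to 11.1 CPM over the libraries, with a log2 fold change of -0.05 (95% confidence interval -0.55 to 0.46). Peak_34809 (chr3:90593937-90594482) had 12.4 CPM and 11.9 CPM in femur replicates 1 and 2, and 9.55 CPM and 10.6 CPM in mandible replicates 1 and 2. Both mandible libraries were below both femur libraries. The log2 fold change was -0.27 (standard error 0.219, 95% confidence interval -0.73 to 0.19), and the log2 difference was below 0 in batch A (-0.38) and in batch B (-0.16). Its direction was the same under all alternatives, with log2 fold changes from -0.39 to -0.20. The direction also never turned in Peak_34801, Peak_34804, Peak_34806 and Peak_34807.

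Peak_34807 had 5.63 CPM and 7.95 CPM in femur replicates 1 and 2, and 5.07 CPM and 5.96 CPM in mandible replicates 1 and 2. Mandible was below femur in each batch, but mandible replicate 2 was above femur replicate 1, and the log2 fold change was -0.31 (95% confidence interval -0.86 to 0.25). It was -0.0225 without femur replicate 2 and -0.53 without femur replicate 1. The short Peak_34808 had log2 differences of 0.93 in batch A and -0.40 in batch B. Its level was highest in mandible replicate 1, at 5.20 CPM, and from 2.28 to 3.01 CPM in the other libraries. Its log2 fold change was 0.39 (95% confidence interval -0.34 to 1.12).

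Below S100a8 lay 5 peaks, 4 of them of at most 254 bp. Peak_34801 (chr3:90566698-90567336), at -9.49 kb from the S100a8 peak, had the lowest unadjusted p of the locus. Its levels were 9.91 CPM and 17.4 CPM in femur replicates 1 and 2, and 9.004 CPM and 10.4 CPM in mandible replicates 1 and 2. Femur replicate 2 was high, and the other libraries lay close together and overlapped. The femur mean was 13.6 ± 5.27 CPM (SD, n = 2) and the mandible mean 9.69 ± 0.969 CPM (SD, n = 2), with a log2 fold change of -0.50 (standard error 0.258, 95% confidence interval -1.04 to 0.04, unadjusted p = 0.0692). Within batch A the log2 difference was -0.14, and within batch B it was -0.74. Without femur replicate 2 the log2 fold change was -0.02, and without femur replicate 1 it was -0.85 (adjusted p = 0.0111 from edgeR's test), again in the fit that called 4.71% of all peaks. The other 4 peaks of this side, Peak_34799, Peak_34800, Peak_34802 and Peak_34803, had levels from 2.17 to 5.01 CPM and log2 fold changes from -0.17 to 0.03, and in each of them the differences in batches A and B had opposite signs.

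Above S100a9 lay 2 peaks. Peak_34813 (chr3:90617263-90617707), the highest of the locus per kb and the last before the long stretch without peaks, had 12.3 CPM and 15.97 CPM in femur replicates 1 and 2, and 15.2 CPM and 12.4 CPM in mandible replicates 1 and 2. Each site had 1 library near 12 CPM and 1 near 15 or 16 CPM, so the groups overlapped fully. Mandible over femur gave a log2 fold change of -0.04 (standard error 0.220, 95% confidence interval -0.50 to 0.43). Peak_34812 ranged from 2.88 to 3.48 CPM, with a log2 fold change of -0.05.

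Just outside the window, the next peak on the S100a8 side, Peak_34798 (chr3:90547137-90547348), had 3.66 CPM and 4.74 CPM in femur replicates 1 and 2, and 2.32 CPM and 2.63 CPM in mandible replicates 1 and 2. Both mandible libraries were below both femur libraries, as in 13.8% of all peaks. The log2 fold change of Peak_34798 was -0.77 (unadjusted p = 0.0185 from edgeR's test), which did not pass the adjusted threshold. By the same test, 2.71% of all peaks had an unadjusted p under 0.05. The next peak on the other side, Peak_34814, was 1412 kb from the S100a8 peak and had a log2 fold change of 0.08.

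Mandible was also compared with femur within each batch, a comparison with 1 library per site and no test. In batch A, mandible was lower in 6 of 15 peaks, against 50.6% of all peaks, with a median log2 difference of 0.03. In batch B it was lower in 12 of 15, against 51% of all peaks, with a median of -0.40. Over all peaks these medians were -0.0034 and -0.01. In 4 peaks (Peak_34801, Peak_34804, Peak_34807 and Peak_34809) mandible was lower in both batches, against 22% of all peaks, and only in Peak_34806 was it higher in both, against 20.3%. In the other 10 the signs were opposite. Both mandible libraries were below both femur libraries in 2 of 15 peaks, Peak_34804 and Peak_34809, against 13.8% of all peaks, and above them in 0 of 15, against 13.3%.

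Among the other 14 peaks, the pattern over the 4 libraries was nearest to that of the S100a8 peak in Peak_34802 (Euclidean distance of centred log2 CPM 0.222), Peak_34813 (0.257) and Peak_34807 (0.302). The S100a9 peak had a distance of 0.329 and Peak_34810 one of 0.331. Peak_34806 was the farthest, at 1.46. With 4 libraries, these distances describe only the levels above.

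**Figure D3:**
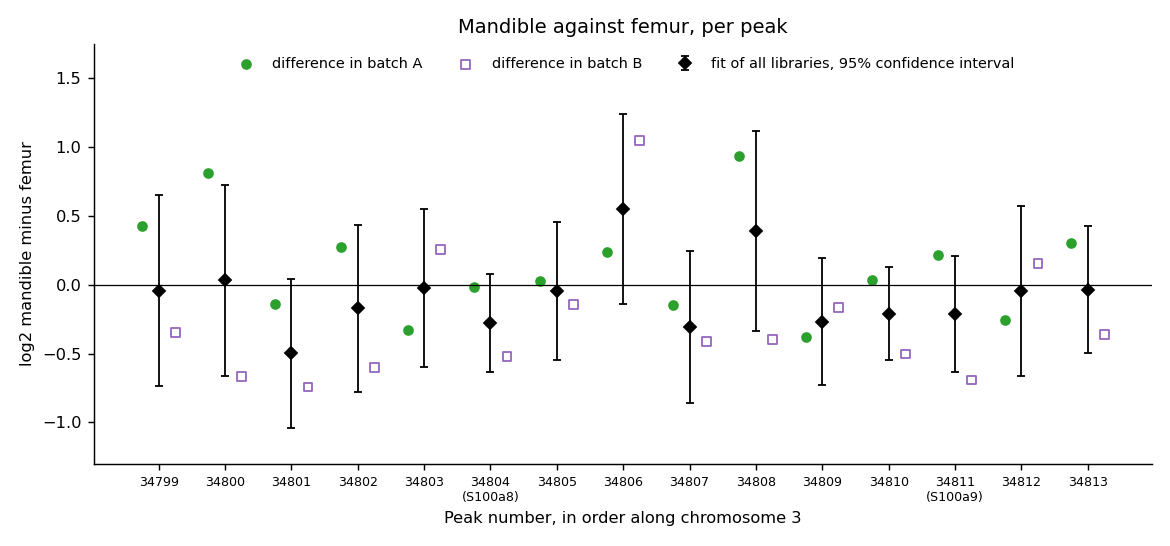
Black diamonds show the log2 fold change of mandible over femur of each of the 15 peaks with its 95% confidence interval from edgeR's fit, green circles the log2 difference within batch A and open squares that within batch B. All 15 intervals cross 0, and the squares of batch B lie below 0 in 12 peaks while the circles of batch A do so in 6.

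Summed over the 15 peaks, the locus held 8156 reads from femur and 5997 from mandible in batch A, and 16584 from femur and 4231 from mandible in batch B. Single counts per peak and library ranged from 57 to 3649. As a share of all reads in peaks, these sums were 0.0185% (95% Wilson interval 0.0181% to 0.0189%) in femur replicate 1 and 0.0220% (0.0217% to 0.0224%) in femur replicate 2. Mandible replicate 1 had a share of 0.0188% (0.0183% to 0.0192%) and mandible replicate 2 one of 0.0154% (0.0149% to 0.0159%). The intervals cover counting error only. Batch B thus held both the highest and the lowest share, and the libraries of batch A lay between them with overlapping intervals. The femur mean was 0.0203% ± 0.00249 (SD, n = 2) and the mandible mean 0.0171% ± 0.00237 (SD, n = 2). The log2 difference was -0.25, with a two-sided exact permutation p of 0.667, where the smallest p that 2 libraries against 2 allow is 0.333. In edgeR's fit, scaling by total reads alone gave a median log2 fold change of -0.12 over all peaks. The log2 difference of the summed locus was -0.15 with TMM and -0.18 with loess-normalised CPM. With total reads alone it was 0.02 within batch A and -0.52 within batch B, so the difference did not hold within both batches.

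**Figure D4:**
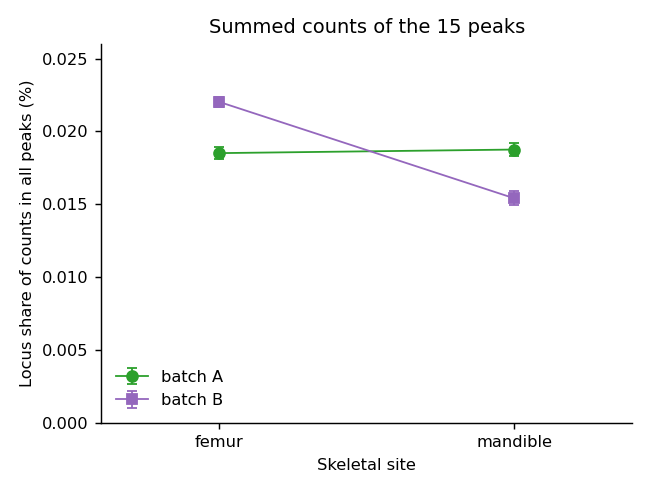
Points show the reads of the 15 peaks as a percentage of all reads in peaks for femur and mandible, with 95% Wilson intervals as bars and a line joining the libraries of a batch. The share is nearly equal in batch A (0.0185% and 0.0188%) and is 0.0220% in femur and 0.0154% in mandible in batch B.

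Total reads in peaks ranged from 27464565 to 75294068 per library, femur replicate 2 being the deepest and mandible replicate 2 the shallowest. Femur replicate 2 also stood apart from the others over the whole table. The SD of the log2 difference over all peaks was from 0.430 to 0.498 between it and each other library, and from 0.269 to 0.342 among the other 3. The part of this library in the values of batch B was not tested beyond leaving it out. Without femur replicate 2 the log2 difference of the summed locus was -0.12, and without mandible replicate 2 it was -0.11.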

How the data were processed

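Monocytes from femur and mandible were profiled by ATAC-seq. According to the study's methods and the submitters' processing notes, Trimmomatic trimming and Bowtie2 alignment (GRCm39) were followed by removal of duplicates and of reads with a mapping quality under 20. Genrich then called peaks for each pair of duplicates, and the authors merged them with bedtools. The deposited values are unnormalized counts of single reads per merged peak from featureCounts 2.0.6. Since peaks were called on pairs, only counts were compared, and merging sets the width of a peak.

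Loess offsets (span 0.3, pseudocount 0.5) and edgeR 4.0.16's glmQLFit and glmQLFTest were fitted over all 57090 peaks in R 4.3.3, with limma 3.58.1 for the curves and the skeletal site as the only term (common dispersion 0.0291). Standard errors are the log2 fold change over the square root of F. Alternatives were DESeq2 1.42.0, TMM, library size alone, at least 1 count in total, 10 counts in every library, thinning, batch as a block, other thresholds and each library left out. The fit was tested on simulated counts. Same-numbered libraries share pooled mice per the labels, and their deviations from the site means had a correlation of -0.167 across peaks. P-values and intervals rest on the spread between 2 libraries per site, drawn toward a trend over all peaks (prior degrees of freedom 15.7). The libraries of both sites came from the same 2 pools.

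The peaks called S100a8 and S100a9 are those nearest to the stated positions. Peaks at the genes or their promoters, the 3 with the lowest p and the 3 highest per kb were named in full. Other peaks with values (such as Peak_34809 and Peak_34810) and the likeness of patterns were added after their values were seen, and the members and lists were chosen with earlier results of these data known. The reference used here was GRCm38.p6, not the build of the peaks, so promoter peaks of other genes and cell type markers, exon overlap and peak sequences were not analysed.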

Additional observations from a re-analysis of the deposited data

How the results depend on the processing

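The count of called locus peaks, 0 higher and 0 lower in mandible, was 0 and 0 with every alternative that kept all 4 libraries. With 1 library left out it ranged from 0 to 1 higher and from 0 to 1 lower, the calls being Peak_34806 and Peak_34801 without femur replicate 1. In these fits the site left with 1 library was assumed to vary like the other. With DESeq2, 6 of the 15 peaks had no adjusted p, nor did 26564 of all 57090 peaks. Over the whole table, 3 peaks were higher and 1 lower. There were 6 and 0 with TMM, 16 and 2 with library size alone, 15 and 0 with DESeq2 (1606 peaks at an unadjusted p under 0.05), 8 and 2 with libraries thinned to the smallest total, 0 and 0 at an adjusted threshold of 0.01 and 9 and 2 at 0.1. The replicate block gave 47 and 10, and a crossed block, added after the data were seen, 184 and 23. With 1 library left out the counts ranged from 4 to 2141 higher and from 1 to 547 lower. Without femur replicate 1 there were 2141 and 547, without mandible replicate 1 15 and 1, without femur replicate 2 14 and 11, and without mandible replicate 2 4 and 3. Requiring 10 counts in every library left 3 and 1.

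Of 180 combinations of locus peak and alternative, 23 turned direction, in 10 peaks. The alternatives included a minimum of 1 count in total, which kept all 57090 peaks and so could turn none. Peak_34799, at -0.04 in the fit of all libraries, was at 0.0307 with the replicate block and 0.0149 with the crossed one. Peak_34800, at 0.03, was at -0.11 with TMM, -0.22 with library size alone, -0.0944 with DESeq2 and -0.0175 after thinning. Library size alone moved the median of all peaks to -0.12, and the locus median to -0.25. The other 17 came with a library left out, where the log2 fold change ranged from -0.41 to 0.50 for Peak_34799, -0.33 to 0.55 for Peak_34800, -0.39 to 0.0937 for Peak_34802, -0.25 to 0.17 for Peak_34803, -0.26 to 0.14 for Peak_34805, -0.34 to 0.85 for Peak_34808, -0.49 to 0.0085 for Peak_34810, -0.55 to 0.0529 for Peak_34811, -0.19 to 0.0926 for Peak_34812 and -0.21 to 0.17 for Peak_34813. The sum over the locus, -0.25 with total reads alone, was at -0.15 with TMM and -0.18 with loess-normalised CPM. With total reads alone it was at 0.019 within batch A, and between -0.39 and -0.11 with a library left out. The cause of these changes was not tested. The replicate block changed no call of a locus peak. Alternatives for gene lists were not run, since no promoter peaks could be assigned.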
